A study of Mus musculus with 9 samples.

Results

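In pharyngeal mesoderm and heart of wild-type mouse embryos, 64 accessible chromatin regions on chromosome 2 were assigned to 7 neighboring genes, namely Plcb4, Lamp5, Btbd3, Ism1, Macrod2, Flrt3 and Kif16b. These were 64 of the 17164 distinct regions in the list, and they were found by the gene symbol that the authors attached to each region. The 7 genes were selected on these same data, because they lie in the stretch of the genome with the most distal regions, so their region counts, distances and density are given as a description and were not tested. The regions lie between chr2:135503250 and chr2:142727820 of the mouse genome build mm9 (NCBIM37), a segment of 7.22 Mb. The transcripts named in the list were NM_013829 for Plcb4, NM_029530 for Lamp5, NM_145534 for Btbd3, NM_001126490 for Ism1, NM_028387 for Macrod2, NM_178382 for Flrt3 and NM_001081133 for Kif16b.

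The tissue was dissected at embryonic day 8.75, at the stage of 6 somites, from embryos with the genotype wt. The assay was ATAC-Seq, which marks open chromatin by the places where Tn5 transposase can insert its adapters. The values used here are 1 list of regions common to 3 wild-type libraries. The other 6 libraries of the study, 3 from Isl1-/- embryos and 3 from Isl1Cre+/-/ Brg1fl/fl embryos, were not analysed here. The list gives no signal, no depth and no value per library, so there is no replicate error and no statistical test. The intervals below are 95% Wilson intervals and cover counting error over regions only. Neighboring regions share local base composition and are not replicates. The labels do not say whether the 3 libraries came from separate litters or pools, and with no expression values the tissue could not be checked against marker genes.

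Flrt3 encodes a membrane protein with leucine-rich repeats and a fibronectin domain, which acts in cell adhesion and repulsion by binding Unc5 receptors and latrophilins and which modulates FGF signaling. Macrod2 encodes an enzyme that removes ADP-ribose from proteins, and Kif16b a kinesin motor that carries early endosomes. Btbd3 encodes a BTB-domain protein that orients dendrites, Plcb4 a phospholipase C that acts downstream of G protein-coupled receptors, Lamp5 a lysosome-associated membrane protein, and Ism1 a secreted isthmin. Genes with roles in development are often flanked by long stretches with few genes, so-called gene deserts, that can hold distal regulatory elements. Accessible regions far from a start can be enhancers, insulators or starts of unannotated transcripts, and accessibility alone does not tell these apart, nor does it say which gene a region acts on.

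The sequence of a few of these regions is shown first, picked for their motif matches and not as typical regions. For 4 genes the 300 bases at the center of the distal region holding the most kinds of the 12 searched motifs are printed, all on the plus strand, with the motif matches of either strand in capitals. The Flrt3 region held 6 kinds, namely GATA, Meis, E-box, Sox, AP-1 and Nkx. For Btbd3, a region 499.1 kb upstream held 5 kinds as well, and the wider of the tied regions is shown. The Btbd3 region printed held E-box, Sox, forkhead, Nkx and Mef2 matches, the Kif16b region GATA, TEAD, Meis, Sox and Nkx matches, and the Lamp5 region GATA, Isl1 type, TEAD, Meis and E-box matches. The Btbd3 window lies between genes, the Flrt3 and Kif16b windows in introns of Macrod2, and the Lamp5 window in an intron of Pak7.
Flrt3 region 600.3 kb from its start, chr2:141097318-141097617, plus strand: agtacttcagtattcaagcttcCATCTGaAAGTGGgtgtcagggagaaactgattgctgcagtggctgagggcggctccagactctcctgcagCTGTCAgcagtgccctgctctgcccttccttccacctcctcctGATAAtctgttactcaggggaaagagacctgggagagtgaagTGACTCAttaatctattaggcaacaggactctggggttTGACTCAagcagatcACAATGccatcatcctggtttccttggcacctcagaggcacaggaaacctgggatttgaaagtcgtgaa
Btbd3 region 40.8 kb from its start, chr2:138041387-138041686, plus strand: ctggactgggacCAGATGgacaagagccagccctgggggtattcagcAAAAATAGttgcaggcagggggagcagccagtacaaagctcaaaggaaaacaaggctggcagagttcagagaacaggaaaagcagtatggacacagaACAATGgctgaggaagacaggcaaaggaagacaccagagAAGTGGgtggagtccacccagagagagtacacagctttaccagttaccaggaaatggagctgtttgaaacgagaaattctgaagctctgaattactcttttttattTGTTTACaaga
Kif16b region 877.4 kb from its start, chr2:141849677-141849976, plus strand: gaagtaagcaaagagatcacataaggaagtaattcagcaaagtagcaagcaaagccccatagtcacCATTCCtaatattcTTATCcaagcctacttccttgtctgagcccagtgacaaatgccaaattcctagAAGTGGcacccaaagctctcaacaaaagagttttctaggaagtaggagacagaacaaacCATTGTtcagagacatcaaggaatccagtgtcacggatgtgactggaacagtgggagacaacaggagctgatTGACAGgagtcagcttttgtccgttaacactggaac
Lamp5 region 66.6 kb from its start, chr2:135950102-135950401, plus strand: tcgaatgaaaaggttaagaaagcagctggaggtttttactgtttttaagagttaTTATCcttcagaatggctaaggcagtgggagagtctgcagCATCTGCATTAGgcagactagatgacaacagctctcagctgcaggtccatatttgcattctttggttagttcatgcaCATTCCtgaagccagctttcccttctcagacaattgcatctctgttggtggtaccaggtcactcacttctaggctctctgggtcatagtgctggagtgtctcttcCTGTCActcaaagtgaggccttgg

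The widest distal region of the 7 genes is shown as well, and it was not picked by its motifs. It covers 2709 bp at chr2:137530455-137533163, 550.5 kb upstream of Btbd3 in an intron of the noncoding transcript Gm14064. Its central 300 bases held 1 kind of motif, a TAATTA homeodomain match, in capitals below.
Btbd3 region 550.5 kb from its start, chr2:137531659-137531958, plus strand: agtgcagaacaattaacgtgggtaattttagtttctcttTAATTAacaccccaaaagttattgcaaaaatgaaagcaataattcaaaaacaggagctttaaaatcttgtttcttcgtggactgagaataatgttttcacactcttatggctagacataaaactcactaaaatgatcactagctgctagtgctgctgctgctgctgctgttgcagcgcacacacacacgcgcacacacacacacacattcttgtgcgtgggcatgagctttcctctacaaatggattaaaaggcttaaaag

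Btbd3, Flrt3 and Kif16b had 15 regions each, Lamp5 8, Plcb4 5, Ism1 4 and Macrod2 2. Of the 11541 genes in the list 8443 had a single region and 4 had 15 or more, so Btbd3, Flrt3 and Kif16b made up all but 1 of the latter. The selection did not follow the count alone. Jag1, a ligand of Notch receptors that lies in the same segment, had 8 regions, as many as Lamp5, and is not among the 7 genes, whereas Macrod2 with 2 is. The segment held 31 further regions, assigned to Jag1, to Ankef1 and Sel1l2 with 4 each, to Snap25, Ndufaf5 and Mir1952 with 3 each, to Sptlc3 and Tasp1 with 2 each, and to Pak7 and Slx4ip with 1 each. The coding genes Mkks, Esf1, BC034902, Gm11035 and Gm17374, also in the segment, had no region under their symbols, although both coding starts of Esf1 were covered by 1 region assigned to its neighbor Ndufaf5.

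**Figure D1:**
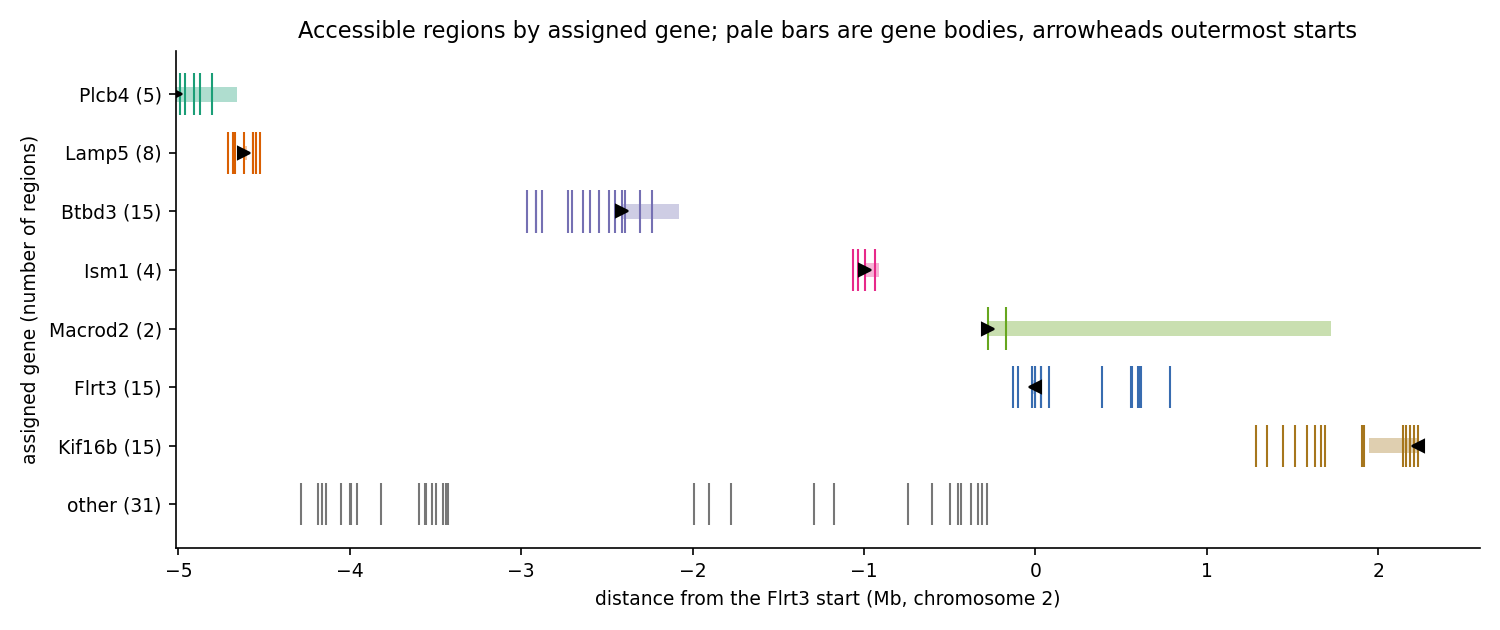
Map of the segment, with distance from the Flrt3 start in Mb on the horizontal axis and 1 row per assigned gene; each vertical line is the center of 1 region, pale bars are gene bodies and arrowheads the outermost annotated starts. The 15 Flrt3 regions and 8 of the 15 Kif16b regions stand over the long body of Macrod2, to which only 2 regions were assigned.

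A region was termed distal when its center was more than 10 kb from the start of its assigned gene. Among the 64 regions 56 were distal, or 87.5% (77.2 to 93.5%), beside 39.3% of all regions. The regions nearest to this limit were one of Lamp5 at 6.31 kb, just inside, and one of Flrt3 at 17.7 kb, just outside. Beyond 100 kb were 32 of the 64, or 50%, beside 14.9% of all regions, and beyond 300 kb were 22, or 34.4% (23.9 to 46.6%), beside 4.78%. The 22 regions beyond 300 kb comprised 10 of Kif16b, 7 of Flrt3 and 5 of Btbd3, and made up 2.68% of the 820 regions at that distance in the list. These distances depend on the assigned symbol. Among the 10 of Kif16b, the 8 inside Macrod2 lay only 10953 to 221265 bp from a Macrod2 coding start in GENCODE. Because the rule used distal regions, these shares describe the selection.

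In windows of 5 Mb moved in steps of 100 kb, the window at chr2:135400001-140400000 held 54 distal regions, the highest count of 25508 windows. The median window held 12, with quartiles of 7 and 18. All 88 windows with more than 40 distal regions overlapped the segment. Over the segment as a whole there were 10.80 distal regions per Mb, beside 3.27 on chromosome 2 and 2.55 in the genome. The order changed when regions narrower than the list median of 1123 bp were left out, since the best window of the segment then held 15 distal regions and the best window elsewhere 17.

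**Figure D2:**
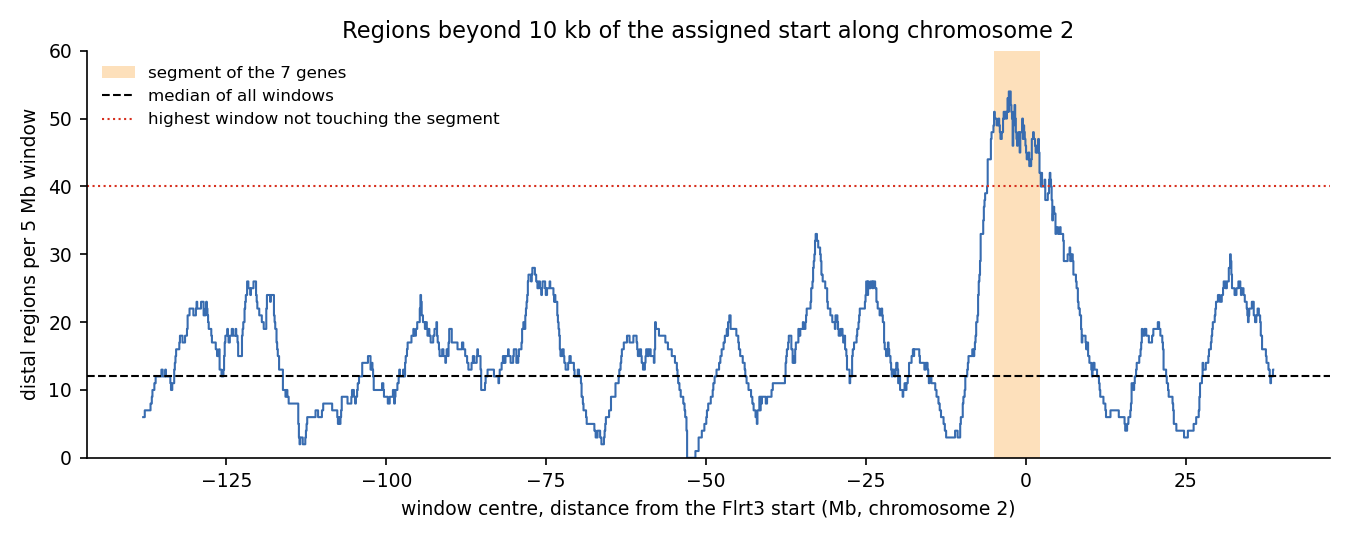
Number of distal regions of any gene per 5 Mb window along chromosome 2, against the distance of the window center from the Flrt3 start in Mb. The curve peaks at 54 within the shaded segment of the 7 genes, above the dotted line at 40, which is the highest window that does not touch the segment, and the dashed line at 12 is the median of all windows.

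The segment was poor in genes. It held 21 protein-coding genes of the GENCODE annotation, or 2.91 per Mb, beside 10.10 per Mb on chromosome 2, and its GC content was 39.6% beside 42.1%. The median gap between neighboring regions was 39.7 kb in the segment and 72.8 kb in the list. The regions were nevertheless uneven. The longest gap, 498.9 kb, separated the last Flrt3 region from the first Kif16b region inside Macrod2. Further gaps of 483.7 kb and 460.0 kb lay between Mir1952 and Sptlc3 and between Jag1 and Btbd3, and a gap of 307.5 kb split the Flrt3 regions.

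The most similar windows elsewhere held 37 to 40 distal regions. That on chromosome 3 (chr3:141000001-146000000) had 40, led by Bmpr1b, a BMP receptor, with 8. That on chromosome 15 (chr15:88600001-93600000) had 39, led by Pdzrn4 with 6, and windows on chromosome 10 (chr10:106600001-111600000) and chromosome 13 (chr13:108200001-113200000) tied at 37, led by Nav3 with 6 and by Mir1904 and Mir582 with 7 each. They held 20 to 53 coding genes, beside 18 in the window of the segment. Median CpG frequency of the distal regions was 0.89 per 100 bp in the window of the segment and 1.26 to 1.47 in the other 4, and median GC content was 44.3% beside 44.0 to 47.5%.

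Flrt3 is a short gene of 20.6 kb on the minus strand that lies wholly within Macrod2, a gene of 1997.7 kb on the plus strand. A region of 1197 bp at chr2:140496607-140497803 covered its start. A second region, at chr2:140493609-140494835, lay 2.99 kb downstream in the first part of the gene. Of the 13 distal regions 10 were upstream and 3 downstream. The upstream ones fell into groups. There were 3 between 32.7 and 77.4 kb, 1 at 385.8 kb, 5 between 559.7 and 617.7 kb (chr2:141056413-141115818) and 1 at 784.0 kb. The group of 5 was the farthest dense group of Flrt3, and 2 of its regions lay at an exon and at a start of the noncoding transcript Gm14105.

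Macrod2 was assigned 2 regions. One of 1987 bp covered its start at chr2:140220435-140222421, and one of 575 bp lay in an intron 105.8 kb downstream. Its gene body held 25 of the 64 regions, of which 15 carried the symbol of Flrt3 and 8 that of Kif16b. The share of these 25 assigned to Macrod2 was thus 8% (2.22 to 25%). This share depends on how symbols were assigned, and the 25 regions lie in a single gene, so they are not independent of each other.

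Kif16b, on the minus strand, had a region of 1234 bp over its start at chr2:142726587-142727820. All 14 distal regions lay on the downstream side. There were 4 within the gene, from 20.1 to 88.2 kb, then 2 beyond its end at 311.5 and 323.9 kb. The latter covered 497 bp, the narrowest of the 64, and lay within 1 kb of the start of the pseudogene Gm14081. The remaining 8 were in introns of Macrod2, from 538.5 to 946.1 kb, the largest distance of the 64.

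Btbd3 had regions at both of its annotated coding starts. The first, 1756 bp at chr2:138081634-138083389, had 6.09 CpG per 100 bp, and the second, 1045 bp at chr2:138103706-138104750, had 1.91. Of its 13 distal regions 11 were upstream and 2 downstream, at 84 and 153.8 kb in its own introns. The upstream ones were spread from 40.8 to 550.5 kb. There were 7 between genes and 4, from 461.5 kb outwards, in introns of Gm14064. The span of the Btbd3 regions was 728 kb.

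Lamp5 and Plcb4 had no region within 1 kb of the assigned start, unlike the other 5 genes. The nearest Lamp5 region, 1678 bp at chr2:135876516-135878193, lay 6.31 kb upstream and covered another annotated Lamp5 start at its 3' side. Of the 7 distal Lamp5 regions 3 lay in Plcb4 introns or near an internal Plcb4 start, and 4 in introns of Pak7, a kinase gene on the other side. None lay in Lamp5 itself, which is 17.7 kb long. All 5 Plcb4 regions were inside Plcb4, a gene of 355.6 kb, from 22.9 to 124.8 kb from the assigned start. None covered a coding start in GENCODE, and 1 (chr2:135590085-135590909) covered the start of a noncoding Plcb4 transcript.

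Ism1 had the widest region of the 7 genes, 3130 bp at chr2:139501965-139505094 over its start, which also covered the start of the noncoding Gm14066. Upstream regions lay at 40.2 kb in an intron of Gm14066 and at 68.9 kb in an intron shared by Gm14066 and Sptlc3. The single downstream region, at 56.8 kb, was in an Ism1 intron.

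**Figure D3:**
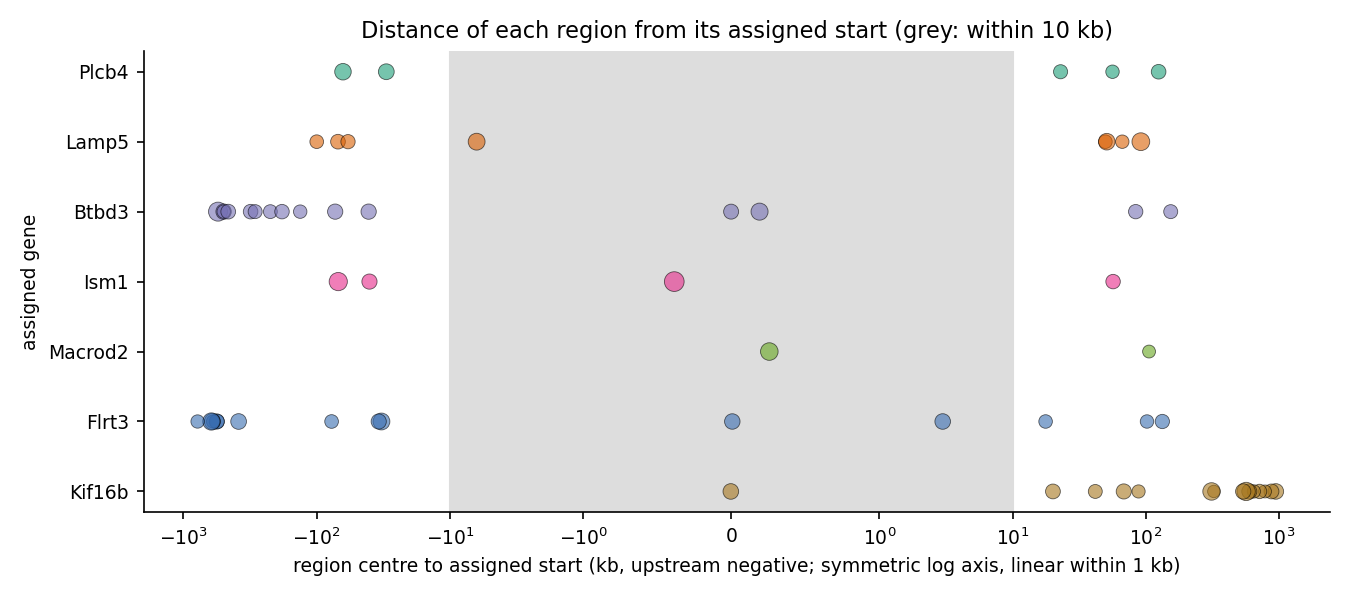
Signed distance in kb from the center of each of the 64 regions to the start of its assigned gene, on a symmetric log axis that is linear within 1 kb, with 1 row per gene and a symbol area that grows with width. Upstream is negative and the grey band marks 10 kb to either side; distal Kif16b regions are all downstream and 11 of 13 distal Btbd3 regions are upstream.

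The place of a region was that of its center, taken in the order within 1 kb of an annotated start, exon, intron and between genes. In introns were 44 of the 64 regions, or 68.8% (56.6 to 78.8%), beside 15.6% of all regions, 11 were at a start, 1 in an exon and 8 between genes. Inside the gene they were assigned to were 20 regions, 31.2% (21.2 to 43.4%), beside 50.8% of the 14886 regions of the list whose symbol is in GENCODE. Inside a different coding gene were 31, 48.4% (36.6 to 60.4%), beside 8.79%. Among distal regions alone, 76.8% (64.2 to 85.9%) of the 56 were in introns, beside 32.3% of the other distal regions. The gene they were assigned to held 25% (15.5 to 37.7%) of the 56, beside 28.8% of the 5444 other distal regions with a symbol in GENCODE, a share within that interval. A different coding gene held 51.8% (39 to 64.3%), beside 11.6%. Of these 29 distal regions in a different coding gene most were in the single gene Macrod2, so they are not independent of each other. Many of the distal regions in introns were in Macrod2 as well, so the same limit holds for the share in introns. The assigned gene was that of the nearest coding start in GENCODE for 52 of the 64. The other 12 were 3 Lamp5 regions nearer to a Plcb4 start, and 1 Flrt3 and 8 Kif16b regions nearer to an internal Macrod2 start. Counted by the nearest coding start, Macrod2 had 11 regions, Kif16b 8, Plcb4 9 and Lamp5 5, and Flrt3 14. These internal starts come from annotated transcript models whose 5' ends were not checked.

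When the stretch of sequence nearer to the coding starts of a gene than to any other was taken as its territory, Btbd3 had 1.20 Mb, Macrod2 1.26 Mb, Flrt3 0.89 Mb, Plcb4 0.50 Mb, Kif16b 0.44 Mb, Ism1 0.29 Mb and Lamp5 0.20 Mb. Regions per Mb of territory, counted by the nearest coding start, were 15.72 for Flrt3, 14.17 for Btbd3, 17.82 for Plcb4 and 8.76 for Macrod2. Among the 998 genes with a territory of at least 500 kb the median was 3.17 per Mb, with quartiles of 1.58 and 5.32. In that order Plcb4 was at rank 3, Flrt3 at rank 4, Btbd3 at rank 11 and Macrod2 at rank 74. The other 3 genes had smaller territories and were not ranked, with 24.65 per Mb for Lamp5, 18.05 for Kif16b and 13.97 for Ism1. The territory of Plcb4 was close to the limit for ranking. Because the genes were selected for the density of their segment, these ranks describe the selection.

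Next, the sequence of the distal regions was described beside that of the 6684 distal regions of other genes. Width was similar, with a median of 928 bp (quartiles 725 and 1150) against 937 bp (783 and 1122). Median GC content was 43.99% (95% interval of the median 42.07 to 45.35) against 46.85%, and median CpG frequency was 0.89 per 100 bp (0.75 to 1.03) against 1.25. The sequence around them was also poorer in GC, with a median of 39.33% in windows centered 3 kb to each side against 42.17%. GC content was higher in the central 300 bp than in these flanks for 52 of the 56 distal regions, or 92.9% (83 to 97.2%), against 89.4%. The median rise was 6.42 percentage points (4.83 to 8.50) against 7.83. The distal regions of the 7 genes were thus lower in GC both at the center and outside, while the median rise of the other distal regions fell within the interval of the median of the 56.

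**Figure D4:**
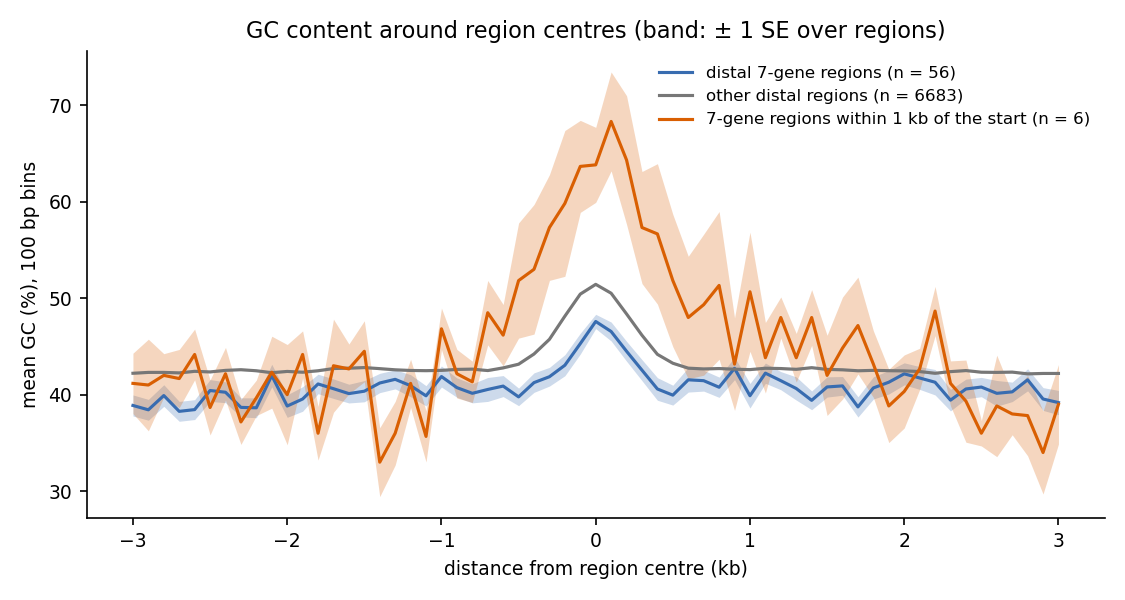
Mean GC content in percent, in bins of 100 bp, against the distance from the region center in kb, with bands of 1 SE over regions. The 56 distal regions of the 7 genes rise to 47.59 at the center and the other distal regions to 51.44, from about 39 and 42 at the edges; the 6 regions within 1 kb of a start rise highest.

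The 6 regions within 1 kb of an assigned start formed a different class. Their GC content ranged from 44.19 to 59.29% and their CpG frequency from 1.91 to 6.79 per 100 bp, with a median of 5.92, close to the median of 5.93 for the 9077 other regions within 1 kb. The lowest 2 were the second start of Btbd3 and the start of Flrt3, at 1.91 and 2.59. Those of Macrod2, Ism1, Kif16b and the first start of Btbd3 were between 5.75 and 6.79. The contrast can be read from the 200 bases upstream of an annotated start, printed 5' to 3' on the strand of the gene and with every CG in capitals. The Macrod2 stretch held 17 CG at 72.0% GC. The Flrt3 stretch held 3 at 50.0%, and so did that of Lamp5, at 44.5%, where no region covered the assigned start.
Macrod2 upstream, chr2:140220845-140221044, plus strand: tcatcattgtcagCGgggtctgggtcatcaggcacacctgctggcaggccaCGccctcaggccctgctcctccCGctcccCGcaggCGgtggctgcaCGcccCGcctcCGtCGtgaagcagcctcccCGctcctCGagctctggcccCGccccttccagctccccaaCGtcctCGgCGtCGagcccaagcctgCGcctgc
Flrt3 upstream, chr2:140497206-140497405, minus strand: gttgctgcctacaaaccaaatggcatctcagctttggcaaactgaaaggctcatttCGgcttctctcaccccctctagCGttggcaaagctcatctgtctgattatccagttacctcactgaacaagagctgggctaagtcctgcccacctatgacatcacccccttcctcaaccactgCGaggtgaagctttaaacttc
Lamp5 upstream, chr2:135883463-135883662, plus strand: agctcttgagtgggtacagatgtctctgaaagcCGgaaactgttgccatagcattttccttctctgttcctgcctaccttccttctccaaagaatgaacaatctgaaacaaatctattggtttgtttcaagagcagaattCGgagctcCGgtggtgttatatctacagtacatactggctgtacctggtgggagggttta

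Short motifs were searched on both strands of the central 300 bp. They were GATAA for GATA factors, CTAATG for the Isl1 type, TAATTA for homeodomain factors, GGAATG for TEAD, TGACAG for Meis, CATCTG as an E-box, CATTGT for Sox, TGTTTAC for forkhead, AGGNGGC for CTCF, TGANTCA for AP-1, AAGTGG for Nkx and AAAAATAG for Mef2. A match is a run of letters and not a bound site. Matches of different motifs were counted separately, also where they could overlap.

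GATA matches stood in 26 of the 56 distal regions, 46.4% (34 to 59.3%), beside 31.1% of the other distal regions and 19.3% of all regions. The flanks of the 56 regions held them in 49.1% of windows, more than the centers did, and the flanks of the other distal regions in 41.1%. The GATA share at the center was therefore above the rest of the list but not above the sequence next to it. CTCF type matches stood in 9 of the 56, 16.1% (8.69 to 27.8%), beside 28.1% of the other distal regions, and in 4.46% and 11.3% of the respective flanks. These were the motifs for which the share of the other distal regions fell outside the interval of the 7 genes. For the other 10 it fell inside.

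Isl1 type matches stood in 10 of the 56, 17.9% (10 to 29.8%), beside 12% of the other distal regions, and the flanks held 18.8% and 12.1%. None was in a distal Flrt3 region, while 4 were in Kif16b, 3 in Lamp5 and 2 in Btbd3 regions. Sox matches stood in 28.6% (18.4 to 41.5%) beside 19.9%, with 6 each in Flrt3 and Kif16b regions. TEAD matches stood in 26.8% (17 to 39.6%) beside 23%, 6 of them in Kif16b regions, and E-box matches in 28.6% beside 22.2%. AP-1 matches stood in 1 of the 56, the Flrt3 region printed above, or 1.79% (0.316 to 9.45%), beside 8.84%. Nkx matches stood in 8 of the 56, 14.3% (7.42 to 25.7%), beside 17.4%, with 6 of the 8 in Kif16b regions. The counts per gene are small, no interval was computed per gene, and differences between the genes were not tested. No match of any of the 12 motifs was found in 6 of the 56 regions, 10.7%, beside 10.7% of the other distal regions.

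**Figure D5:**
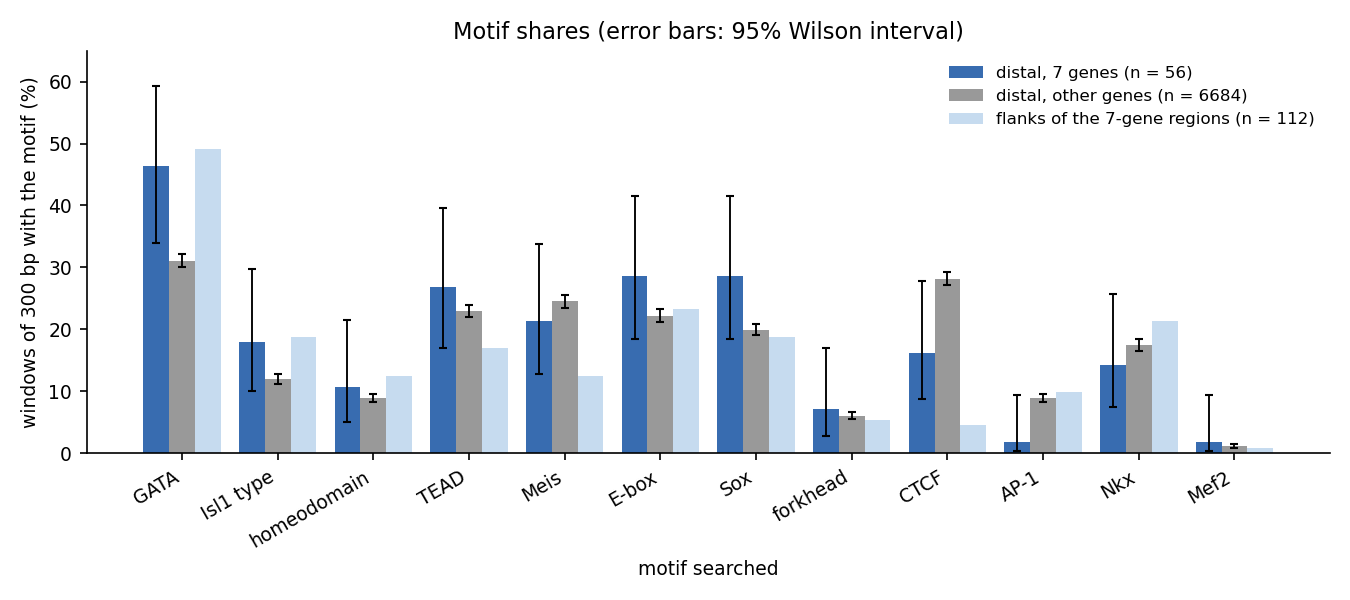
Share in percent of 300 bp windows that hold each of 12 motifs, for the 56 distal regions of the 7 genes, the 6684 other distal regions and the flanks of the 56; error bars are 95% Wilson intervals. GATA is at 46.4% against 31.1% in other distal regions and 49.1% in the flanks, and CTCF is at 16.1% against 28.1%.

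Finally, the relatives of the 7 genes and the binding partners of FLRT proteins were counted in the same list. Of 20 relatives 11 had at least 1 region, or 55%, beside 49.3% of the 21031 genes with a curated coding transcript in RefSeq. They had 15 regions in all, 5 of them distal, and no relative had more than 3. Flrt2 had 3, 2 of them distal, and Flrt1 none. Btbd1, Btbd2 and Btbd6 had 1 each, all within 1 kb of the start. Of the kinesin relatives, Kif13b, Kif1a, Kif1b and Kif14 had 1 each and Kif13a and Kif1c none. Plcb1, which also lies on chromosome 2, and Lamp2 had 2 each, and Ism2 had 1. No region was assigned to Macrod1, Lamp1, Lamp3, Cd68, Plcb2 or Plcb3. Absence of a symbol says only that no region common to the 3 libraries was assigned to that gene. A common region at or in the gene can carry the symbol of a neighbor, as at the starts of Esf1.

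Among the 10 partners 7 had a region, or 70%, beside the same 49.3% of coding genes. They had 32 regions in all, of which 24 were distal, and in the whole list 39.3% of regions were distal. Robo1, a guidance receptor that binds Flrt3, had 10, 8 of them distal. The latrophilins Lphn3, Lphn2 and Lphn1 (Adgrl3, Adgrl2 and Adgrl1) had 9, 5 and 2, of which 7, 5 and 1 were distal. Most of the 24 distal regions thus belonged to Robo1, Lphn3 and Lphn2, and not to the partners in general. Of the netrin receptors Unc5c had 4 and Unc5d 1, and Unc5a and Unc5b none. Fgfr2 had 1 and Fgfr1 none.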

How the data were processed

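Only the list of the wild-type control group was used. Per the study's methods, the authors mapped reads to mm9 with bowtie2, removed duplicates with Picard 1.136, ran MACS14 on each library with a fixed shift, removed blacklisted peaks and intersected replicates with bedtools 2.15 with a minimum overlap of 1 bp. Deposited are the columns start, end and the distance in bp to the assigned start, with a RefSeq transcript and a symbol, and how genes were assigned is not given for these regions in the sources used here. The deposited list is therefore a set of positions without signal. Widths include tag extension, the edges are those of 1 library, weak sites are lost, and assignment to a gene is not evidence of action on it.

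Rows with equal coordinates were counted once (17432 rows, 17164 regions), and no row of the 7 genes was repeated. Positions were read as 1-based and closed. Sequence and gene models came from NCBIM37 and its GENCODE annotation, and RefSeq gene names from GRCm38.p6, with no coordinates taken from it. The genes, motifs and gene lists were chosen with earlier results of these data known. Named were the 7 genes, the genes of the segment, the listed relatives and partners, and the leading genes of the 3 windows next in order, with ties. Intervals are 95% Wilson intervals, and for medians from binomial order statistics. No columns were left unmapped (0). The motif search, window scan and intervals were tested on simulated data. Python 3.11.15, numpy 2.4.6, pandas 2.3.3, scipy 1.17.1 and matplotlib 3.10.9 were used. Alternatives were other distance limits, window lengths, wider regions only, GENCODE starts and coding gene models, and joining regions less than 1 kb apart, the last chosen after seeing the data.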

Additional observations from a re-analysis of the deposited data

How the results depend on the processing

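Leaving out regions narrower than the list median changed most. The 7 genes then had 24 regions, of which 70.8% were distal, and the best window of the segment held 15 distal regions, fewer than the 17 of the best window elsewhere. Window length sets the count itself, and the best window of the segment held 28 distal regions at 2 Mb and 97 at 10 Mb, beside 22 and 70 at most elsewhere. The segment also held the highest window at distance limits of 5 and 20 kb. Median GC content was 46.17% in the central 300 bp in place of whole regions. All rows as deposited gave the same 64 regions, and joining regions less than 1 kb apart, which was added after seeing the data, gave 61. Of 12 motifs, 8 were more frequent in the distal regions of the 7 genes than in other distal regions, beside 8 at 200 bp and 9 at 600 bp. These were not the same motifs, since Nkx was more frequent only at 200 bp, Meis only at 600 bp, and Mef2 not at 200 bp. The GATA share stayed above that of other distal regions at both lengths, with 37.5% against 21.2% and 78.6% against 53.8%. CTCF stayed below, with 8.93% against 20.7% and 35.7% against 42.3%. No intervals were computed at 200 and 600 bp, so the comparison with the interval made at 300 bp was not repeated for either motif. No paired analysis was possible because the list holds no value per library, and no library could be left out for the same reason. Depth is unknown, so no limit of detection can be given.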

Other observations

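Within the segment, 3 pairs of regions lay less than 1 kb apart, with 28 bp between the pair near 500 kb upstream of Btbd3, 38 bp between a pair downstream of Lamp5 in Pak7, and 180 bp between a pair upstream of Flrt3 in Macrod2. In the Btbd3 pair, the region of 670 bp held 5 kinds of motif in its central 300 bp and its neighbor of 1160 bp held none. Whether each pair is 1 site or more cannot be told from positions alone.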
